A study of Gallus gallus with 6 samples.

Results

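FGF3 and FGF19 are neighbouring genes on chicken chromosome 5 that encode secreted fibroblast growth factors, and their transcripts were followed here in the basilar papilla, the auditory sensory organ of the chicken (Gallus gallus) inner ear. The pair was chosen by its log2 fold changes between the groups in these same libraries, so that comparison is described with values and without a test. They are 2 of the 15955 genes in the count table, and both are among the 12133 genes with enough counts to be fitted. The tested papillas carried RCAS(A)-Wnt9a, a replication-competent avian retrovirus with a Wnt9a insert, and the controls carried the parent virus RCAS(A), so virus infection is common to both groups. Right otocysts were infected on embryonic day 3 and the papillas were collected on embryonic day 6. RNA of 24 papillas was pooled for every replicate, with 3 replicates in each group, so each value is an average over embryos. The labels number the RCAS(A)-Wnt9a pools 1, 2 and 3 and the RCAS(A) pools 2, 3 and 4. Libraries held between 19200235 and 23017150 counts. A replication-competent virus can spread between dividing cells, and the share of infected cells in each pool is not given in the sources used here.

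Fibroblast growth factors signal through receptor tyrosine kinases and the RAS and MAP kinase cascade, with heparan sulfate as a cofactor and Sprouty-type proteins as feedback inhibitors. FGF3 acts near its source through heparan sulfate and is needed for normal inner ear development in mouse and human. FGF19 belongs to the endocrine branch, which uses Klotho-type co-receptors, and in the chick embryo it takes part together with a Wnt signal in induction of the otic placode. Wnt proteins are secreted ligands of Frizzled receptors, and their canonical branch acts through beta-catenin and TCF/LEF transcription factors.

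The transferred gene was read first as a check of the labels. WNT9A (ENSGALG00000005401) reached 1340, 539 and 427 CPM in RCAS(A)-Wnt9a pools 1, 2 and 3, where CPM is the count scaled to library size with the TMM method. In RCAS(A) pools 2, 3 and 4 it had 7.90, 6.87 and 10.3 CPM. Every RCAS(A)-Wnt9a pool lay far above every RCAS(A) pool, and the RCAS(A)-Wnt9a pools differed among themselves by 3.14-fold. Viral and endogenous WNT9A transcripts are counted together.

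FGF3 (ENSGALG00000026853, chromosome 5, 16916858 to 16927489 on the galGal4 build of the deposited table) had 76.2, 71.7 and 66.2 CPM in RCAS(A)-Wnt9a pools 1, 2 and 3, against 22.3, 21.7 and 23.0 CPM in RCAS(A) pools 2, 3 and 4. These values rest on 1693, 1611 and 1248 counts in the RCAS(A)-Wnt9a libraries and on 517, 473 and 466 counts in the RCAS(A) libraries. The groups did not overlap, and the lowest RCAS(A)-Wnt9a pool was 2.88 times the highest RCAS(A) pool. The mean was 71.4 ± 4.99 CPM with RCAS(A)-Wnt9a and 22.3 ± 0.67 CPM with RCAS(A) (SD, n = 3 each), which the fit across all genes expressed as a log2 fold change of 1.68 with an SE of 0.08, or 3.20-fold.

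FGF19 (ENSGALG00000028376, written Fgf19 in the files, chromosome 5, 16862036 to 16868089 on the same build) had 152, 103 and 99.1 CPM in RCAS(A)-Wnt9a pools 1, 2 and 3, against 41.8, 37.8 and 46.8 CPM in RCAS(A) pools 2, 3 and 4. The counts were 3383, 2322 and 1868 in the RCAS(A)-Wnt9a libraries and 968, 826 and 949 in the RCAS(A) libraries. The groups again did not overlap, but RCAS(A)-Wnt9a replicate 1 stood well above the other two pools of its group. The lowest RCAS(A)-Wnt9a pool was 2.12 times the highest RCAS(A) pool. The mean was 118 ± 29.5 CPM with RCAS(A)-Wnt9a and 42.1 ± 4.52 CPM with RCAS(A) (SD, n = 3 each), a log2 fold change of 1.49 with an SE of 0.19, or 2.81-fold. Without RCAS(A)-Wnt9a replicate 1 the log2 fold change of FGF19 was 1.27, whereas that of FGF3 was 1.63.

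**Figure D1:**
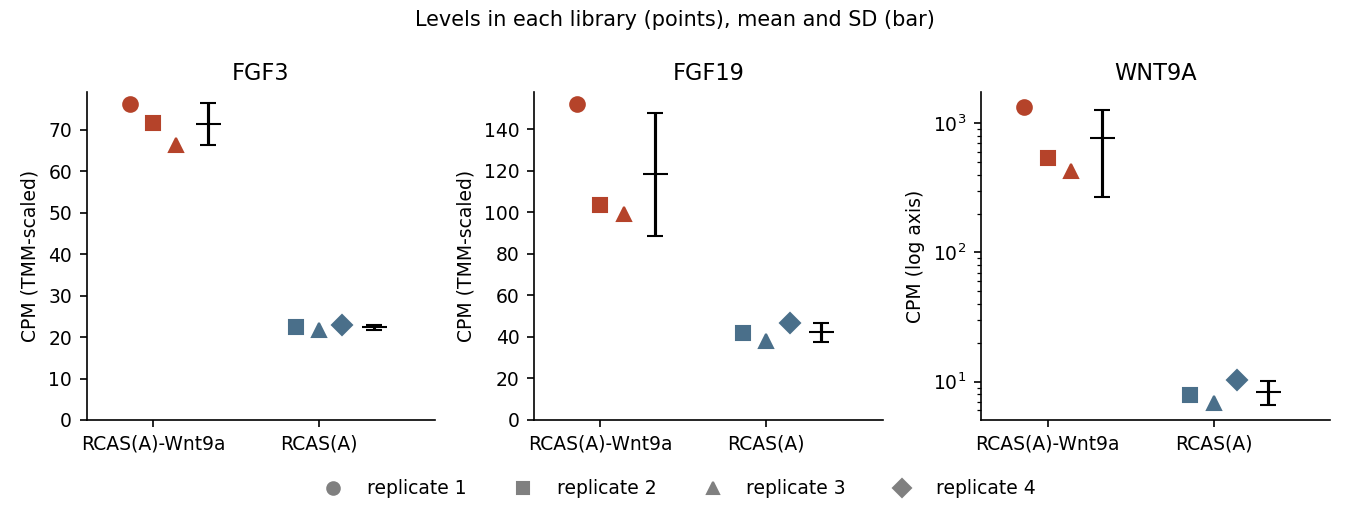
Levels of FGF3, FGF19 and WNT9A in CPM on the y axes (a log axis for WNT9A), with RCAS(A)-Wnt9a on the left and RCAS(A) on the right of each panel; points are libraries, marker shapes are replicate numbers, and bars give the mean and SD of 3 libraries. For FGF3 the RCAS(A)-Wnt9a pools sit between 66.2 and 76.2 CPM, and for FGF19 replicate 1, at 152 CPM, stands apart from 103 and 99.1 CPM.

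Both genes were among the 174 genes that edgeR called higher with RCAS(A)-Wnt9a, which is 1.43% of all genes tested, and nothing is read from that count because the same contrast chose them. The calls in either direction numbered 276, and 148 and 146 without RCAS(A) replicates 2 and 4. Without RCAS(A) replicate 2, 3 or 4, only 1 of the pair was called. All 3 RCAS(A)-Wnt9a libraries lay above all 3 RCAS(A) libraries for both genes, as they did for 9.82% of all genes tested. Among the 10918 genes with an average log2 CPM of at least 1, FGF3 had the 9th largest log2 fold change and FGF19 the 13th, with WNT9A in the 1st place. The median log2 fold change of all tested genes was -0.004, and the central 80% of genes lay between -0.21 and 0.20. In a bulk pool, more cells that transcribe a gene and more RNA per cell cannot be told apart. The measured difference may therefore hold either.

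**Figure D2:**
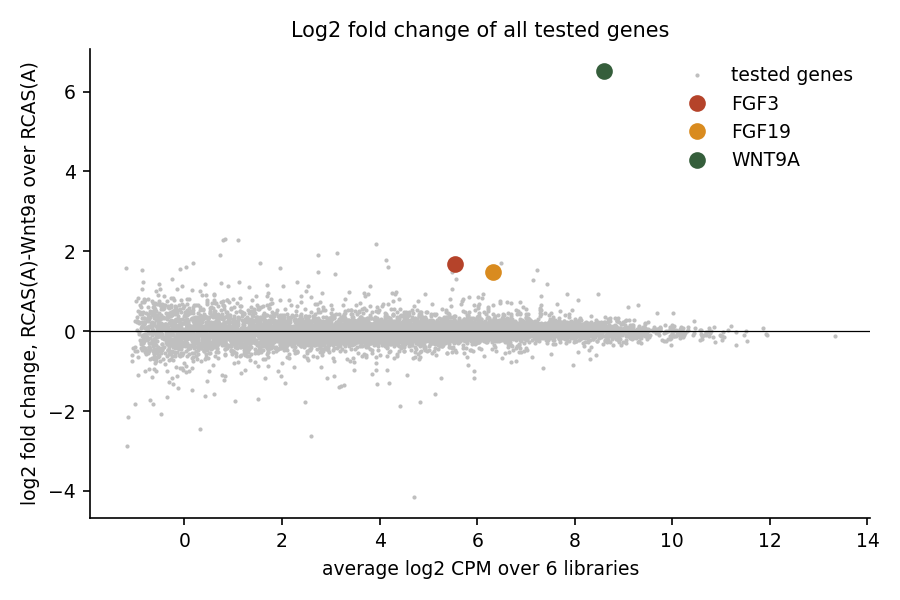
Log2 fold change (RCAS(A)-Wnt9a over RCAS(A)) on the y axis against average log2 CPM over 6 libraries on the x axis, 1 grey point per tested gene. FGF3 at 1.68 and FGF19 at 1.49 lie at the upper edge of the grey points at their abundance, and WNT9A at 6.53 lies above both.

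In abundance, FGF19 stood above FGF3 in every library. Levels of different genes can be compared only per length, which the authors' pooled FPKM (fragments scaled to transcript length and library size, 1 value per group) allows. The authors' pooled FPKM of FGF19 was 42.7 with RCAS(A)-Wnt9a (bounds 35.3 to 50.0) and 15.2 with RCAS(A) (bounds 12.4 to 18.0). That of FGF3 was 13.4 with RCAS(A)-Wnt9a (bounds 11.1 to 15.8) and 4.22 with RCAS(A) (bounds 3.33 to 5.11). For each gene the bounds of the groups did not overlap. Nothing is read from this, because the same contrast chose the pair and the share of all genes with separate bounds was not counted. The confidence level behind the bounds is not given in the sources used here. Per length, FGF19 was therefore 3.17 times FGF3 with RCAS(A)-Wnt9a and 3.60 times with RCAS(A). Per CPM the multiples were smaller, 1.66 with RCAS(A)-Wnt9a and 1.89 with RCAS(A). The length implied by CPM over FPKM was 5.31 kb with RCAS(A)-Wnt9a and 5.29 kb with RCAS(A) for FGF3. For FGF19 it was 2.77 kb in both groups. This implied length restates the same values and is not a measured transcript length.

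The higher starting level of FGF19 meant that its smaller fold was the larger gain in transcript. FGF19 gained 76.1 CPM and FGF3 49.1 CPM, and in pooled FPKM the gains were 27.5 for FGF19 and 9.23 for FGF3. Ranked by mean CPM among the 12133 tested genes, FGF3 had 3828 genes above it with RCAS(A)-Wnt9a and 7456 with RCAS(A). FGF19 had 2220 genes above it with RCAS(A)-Wnt9a and 5611 with RCAS(A). Both transcripts were thus detected in control papillas, where FGF3 exceeded 38.5% and FGF19 53.7% of tested genes. With RCAS(A)-Wnt9a, FGF3 exceeded 68.4% and FGF19 81.7% of them. These ranks use CPM, which is not scaled to length, so they do not order the genes by transcript number.

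**Figure D3:**
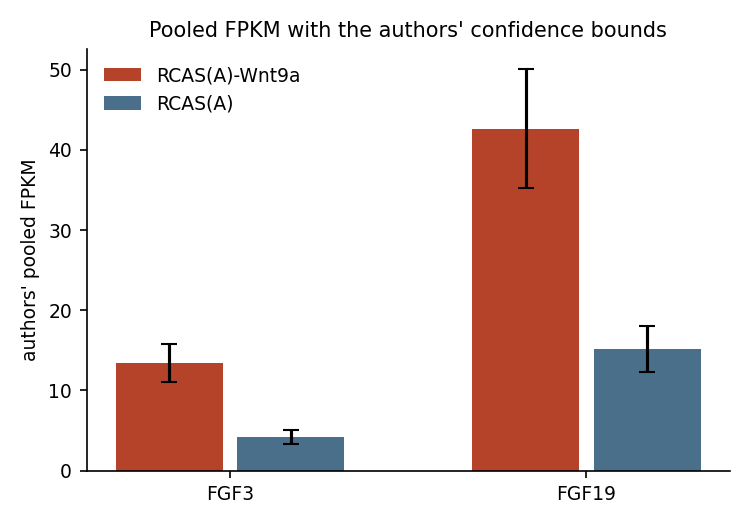
The authors' pooled FPKM (y axis) of FGF3 and FGF19 (x axis), RCAS(A)-Wnt9a bars left of RCAS(A) bars, with the authors' confidence bounds as error bars. FGF19 reaches 42.7 against 15.2 FPKM and FGF3 reaches 13.4 against 4.22 FPKM.

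The ratio of the neighbours to each other needs no scaling, since both are read in the same library. FGF3 had 0.50, 0.69 and 0.67 counts per FGF19 count in RCAS(A)-Wnt9a pools 1, 2 and 3, against 0.53, 0.57 and 0.49 in RCAS(A) pools 2, 3 and 4. RCAS(A)-Wnt9a replicate 1 lay inside the RCAS(A) range and the other two pools lay above it. The mean ratio was 0.62 ± 0.11 with RCAS(A)-Wnt9a and 0.53 ± 0.04 with RCAS(A) (SD, n = 3 each), a difference of 0.21 on the log2 scale that is smaller than the spread among the RCAS(A)-Wnt9a pools.

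The 2 genes differed in how tightly their pools agreed. In RCAS(A) pools the coefficient of variation of FGF3 was 3.00%, below the 4.54% that counting alone would give at its depth, and in RCAS(A)-Wnt9a pools it was 6.99%, against 2.57% from counting. For FGF19 it was 25.0% in RCAS(A)-Wnt9a pools, against 1.99% from counting, and 10.7% in RCAS(A) pools, against 3.31% from counting. The biological coefficient of variation that edgeR assigned was 6.61% for FGF3 and 15.5% for FGF19, where genes of similar abundance had a trend of 7.26% and 6.65%. The dispersion of FGF3 exceeded that of 32.7% of all tested genes, and that of FGF19 exceeded 86.5% of them.

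Within each group the pools kept 1 order for all 3 genes. Among the RCAS(A)-Wnt9a pools, replicate 1 was highest and replicate 3 lowest for WNT9A, FGF19 and FGF3. Among the RCAS(A) pools, replicate 4 was highest and replicate 3 lowest for the same 3 genes. For FGF3 the spread behind this RCAS(A) order was no wider than counting alone would give (3.00% against 4.54%). The sizes of these differences were unequal: across RCAS(A)-Wnt9a pools the highest level was 3.14 times the lowest for WNT9A, 1.54 times for FGF19 and 1.15 times for FGF3. Across RCAS(A) pools the multiples were 1.50 for WNT9A, 1.24 for FGF19 and 1.06 for FGF3. FGF19 per unit of WNT9A, in CPM, was 0.11, 0.19 and 0.23 in RCAS(A)-Wnt9a pools 1, 2 and 3. For FGF3 the corresponding values were 0.06, 0.13 and 0.16. With 3 pools per group, which share a library for all 3 genes, this order is a description and was not tested. The share of all tested genes with the same order was not counted, so nothing is read from it about a relation to the level of WNT9A.

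The listed loci of FGF19 and FGF3 are separated by 48768 bases in galGal4. In RefSeq's GRCg7b assembly, the protein-coding genes in order are CCND1, ORAOV1, FGF19, FGF4, FGF3 and ANO1, so another fibroblast growth factor gene lies between them. RefSeq also lists 2 long noncoding genes, LOC107053430 and LOC124418010, that overlap FGF3 and 0 that overlap FGF19. How the counting treated strand is not given in the sources used here. Reads of overlapping transcripts therefore cannot be told apart from those of FGF3.

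Around the pair the deposited table lists 15 other genes within 500 kb, none of which has a name in the files. Of these, 11 had enough counts to be tested, and edgeR called 0 of them changed, with 2 at an unadjusted p under 0.05 and 0 called by either DESeq2 or limma-voom, where 2.27% of all tested genes were called by edgeR. At that share a set of 11 genes would often hold no call, so the count says nothing particular about the neighbours. Their log2 fold changes ran from -0.39 to 0.35 with a median of 0.06, 7 positive and 4 negative, and the lowest adjusted p was 0.186. The groups did not overlap for 4 of the 11, where the share over all tested genes was 19.0%. With so few genes nothing is read from the difference. The share of all tested genes at an unadjusted p under 0.05 was not counted. The 1 gene listed between FGF19 and FGF3 (ENSGALG00000007562) was close to silent, with 1, 0 and 1 counts in RCAS(A)-Wnt9a pools 1, 2 and 3 and 2 counts in each RCAS(A) library. That row was not paired with a RefSeq gene here.

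The listed genes nearest to the pair were read one by one. ENSGALG00000007556, whose listed locus ends 1.61 kb before that of FGF19 begins, had 445, 411 and 388 counts in RCAS(A)-Wnt9a pools 1, 2 and 3 and 453, 384 and 392 counts in RCAS(A) pools 2, 3 and 4. Its level was 19.6 ± 1.20 CPM with RCAS(A)-Wnt9a and 18.8 ± 1.08 CPM with RCAS(A) (SD, n = 3 each), a log2 fold change of 0.06 with an SE of 0.10 (edgeR adjusted p = 0.871). The groups overlapped. ENSGALG00000007555, 21.1 kb before FGF19, had 91.8 ± 4.99 CPM with RCAS(A)-Wnt9a and 80.4 ± 3.56 CPM with RCAS(A) (SD, n = 3 each), without overlap (log2 fold change 0.19, SE 0.06, edgeR adjusted p = 0.186). On the far side, ENSGALG00000007566, 2.42 kb after FGF3, had 7, 6 and 4 counts with RCAS(A)-Wnt9a and 9, 2 and 3 counts with RCAS(A), too few to test. Over all of chromosome 5, 21 of 778 tested genes were called, or 2.70%, of which 11 were higher, or 1.41%, near the shares over the whole table.

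**Figure D4:**
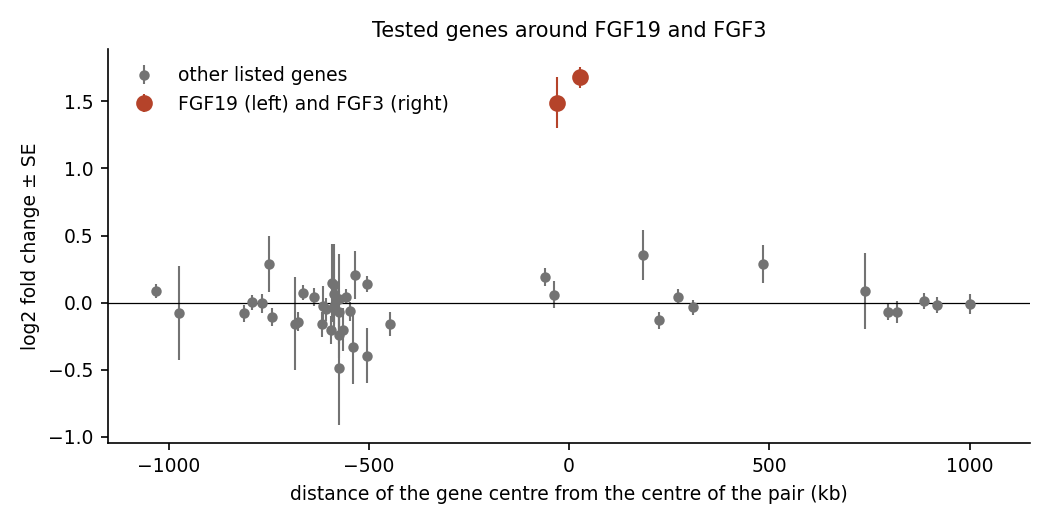
Log2 fold change (RCAS(A)-Wnt9a over RCAS(A)) with its SE on the y axis against the distance of each gene's centre from the centre of the pair in kb on the x axis, for tested genes listed within 1000 kb. FGF19 at 1.49 and FGF3 at 1.68 stand above 44 other genes, which lie between -0.48 and 0.35.

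The rest of the FGF pathway could be read only in small part, because the files name a gene only where the authors' tables call it changed. Of 87 pathway genes on a list ordered by role, 3 had a name: the ligand genes FGF3 and FGF19, and GPC3, which encodes a cell-surface heparan sulfate proteoglycan of the glypican family. GPC3 had 148, 154 and 155 CPM in RCAS(A)-Wnt9a pools 1, 2 and 3, against 101, 128 and 109 CPM in RCAS(A) pools 2, 3 and 4, without overlap. It rose by 0.43 on the log2 scale (SE 0.08, edgeR adjusted p = 0.00961). The edgeR adjusted p was 0.0554, 0.0527 and 0.0578 without RCAS(A) replicate 2, RCAS(A) replicate 4 and RCAS(A)-Wnt9a replicate 2. GPC3 has a name only because the authors' tables call it changed in these same libraries. Its call here was therefore nearly fixed by the naming. No receptor or co-receptor gene (0 of 7), no intracellular transducer (0 of 18) and no feedback inhibitor or transcriptional target (0 of 19, among them the Sprouty genes, DUSP6, ETV4 and ETV5) had a name here. A missing name gives no level and no test, and as 2.27% of all tested genes were called, few calls on a list of this length would be the background share. Nothing is read from it about the pathway.

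The profiles most like those of the pair were found by distance, as the root mean square difference over the 6 libraries of log2 CPM centred on each gene's RCAS(A) mean. The 5 genes nearest to FGF3 were HCN4, a hyperpolarization-activated cation channel gene (distance 0.14), NOTUM, which encodes a secreted enzyme that inactivates Wnt proteins (0.15), PRPS2, a phosphoribosyl pyrophosphate synthetase gene (0.16), SLC24A4, a cation exchanger gene (0.18), and FGF19 (0.21). The 5 nearest to FGF19 were NOTUM (0.17), FGF3 (0.21), OTOP1, a proton channel gene needed for otoconia in mouse (0.23), TCF7, a transcription factor gene of the beta-catenin pathway (0.25), and LAMA3, a laminin chain gene (0.26). These are also the 5 nearest among all 10918 genes with an average log2 CPM of at least 1. By this distance FGF3 was the second nearest to FGF19 and FGF19 the fifth nearest to FGF3. Ranked by Pearson correlation instead, among genes with a name, neither was in the first 5 of the other, and only 2 of the 10 entries were shared (NOTUM for FGF3 and OTOP1 for FGF19). Since all of these genes differ between the groups, the distances mostly restate a fold of similar size.

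NOTUM, which was on both lists by distance but by correlation only on that of FGF3, had 72.0, 67.7 and 56.6 CPM in RCAS(A)-Wnt9a pools 1, 2 and 3, against 23.5, 23.6 and 22.9 CPM in RCAS(A) pools 2, 3 and 4. Its RCAS(A)-Wnt9a pools had the same highest and lowest members as FGF3. Its RCAS(A) pools did not, as replicate 3 was highest and replicate 4 lowest, the reverse of FGF3. OTOP1 had 279, 211 and 224 CPM in the RCAS(A)-Wnt9a libraries and 110.2, 95.1 and 110.0 CPM in the RCAS(A) libraries, so that replicate 1 stood above the other two RCAS(A)-Wnt9a pools as it did for FGF19. The lowest of these pools was replicate 2 for OTOP1 and replicate 3 for FGF19. SLC24A4, also on chromosome 5, had 138, 147 and 129 CPM in the RCAS(A)-Wnt9a libraries and 42.9, 32.1 and 50.9 CPM in the RCAS(A) libraries. Its highest RCAS(A)-Wnt9a pool was replicate 2, unlike that of either growth factor. The order of its RCAS(A) pools was that of both growth factors. HCN4 had this RCAS(A) order too, but NOTUM, PRPS2, OTOP1, TCF7 and LAMA3 did not. For OTOP1 this rests on 110.2 against 110.0 CPM, and the RCAS(A) pools of NOTUM lay within 22.9 to 23.6 CPM. The RCAS(A) pools of TCF7 had only 1.08 to 1.63 CPM. The orders of these genes were not set against the spread from counting, so no likeness or unlikeness is read from them.

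**Figure D5:**
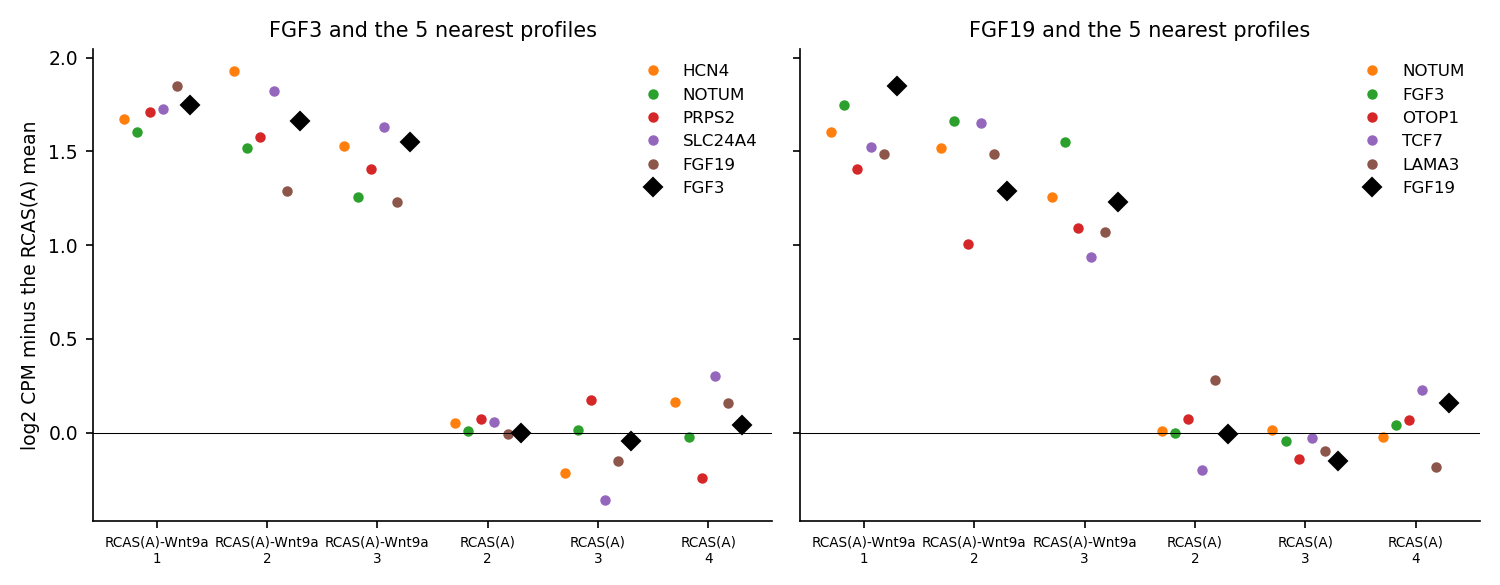
Log2 CPM minus the RCAS(A) mean (y axis) in each library (x axis, RCAS(A)-Wnt9a replicates 1 to 3 left of RCAS(A) replicates 2 to 4) for FGF3 and its 5 nearest genes (left panel) and FGF19 and its 5 nearest genes (right panel). FGF3 (black) lies at 1.75, 1.66 and 1.55 in the RCAS(A)-Wnt9a libraries, and FGF19 (black) at 1.85, 1.29 and 1.23.

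The tissue label was read against markers with a name in the files. These markers are named only where the authors' tables call them changed, so the calls among them are nearly fixed by the naming, and the sums are not the levels of whole lists. Of all tested genes, edgeR called 1.43% higher and 0.841% lower. Transcripts of SOX2, PROX1, OTOA and ISL1, markers of sensory and supporting epithelium, were present in every library, from 42.6 CPM upward with RCAS(A)-Wnt9a and from 67.9 CPM upward with RCAS(A). TECTB, a tectorial membrane gene, averaged 2.78 CPM with RCAS(A)-Wnt9a and 48.8 CPM with RCAS(A). The 5 named of 10 markers on that list summed to 398 to 530 CPM with RCAS(A)-Wnt9a and 683 to 721 CPM with RCAS(A), with 0 called higher and 3 lower. The nonsensory otic epithelium list (5 of 5 named) summed to 1058 to 1186 CPM with RCAS(A)-Wnt9a and 885 to 925 CPM with RCAS(A), with 4 called higher and 0 lower. Most of that sum came from GATA2 and BMP7, at 470 and 453 CPM with RCAS(A)-Wnt9a and 374 and 364 CPM with RCAS(A). Whether the genes on this list mark nonsensory tissue alone was not tested. Within that list the log2 fold change was 2.19 for the homeobox gene MSX1, 0.77 for LMX1A, 0.33 for GATA2 and 0.32 for BMP7. OTX2 went the other way, at -0.34 without overlap of the groups, and was not called (edgeR adjusted p = 0.107). The periotic mesenchyme list (5 of 9 named) summed to 398 to 425 CPM with RCAS(A)-Wnt9a and 324 to 353 CPM with RCAS(A), with 2 called higher and 1 lower. Most of that sum came from TBX18, at 257 CPM with RCAS(A)-Wnt9a and 219 CPM with RCAS(A), which was not called (edgeR adjusted p = 0.0796).

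Of the remaining lists, that of ganglion neurons (2 of 8 named, ISL1 and NTRK2) summed to 165 to 179 CPM with RCAS(A)-Wnt9a and 225 to 261 CPM with RCAS(A), with 0 called higher and 2 lower. ISL1 was also counted on the sensory and supporting epithelium list. NTRK2, counted on the ganglion list alone, averaged 69.0 CPM with RCAS(A)-Wnt9a and 96.9 CPM with RCAS(A). The list of glia and neural crest (1 of 5 named, CDH19) ranged over 12.3 to 17.1 CPM with RCAS(A)-Wnt9a and 9.62 to 10.5 CPM with RCAS(A), and the 1 gene was called higher. That of blood and endothelium (2 of 7 named, TFRC and FLT1) summed to 176 to 187 CPM with RCAS(A)-Wnt9a and 149 to 155 CPM with RCAS(A), with 2 called higher. Most of that sum came from TFRC, at 157 CPM with RCAS(A)-Wnt9a and 133 CPM with RCAS(A), while FLT1 had 25.4 and 19.3 CPM. Whether TFRC marks blood or endothelium alone was not tested. No hindbrain marker (0 of 5) had a name, and no named marker was at 0 in any library. The part of such shifts in the higher levels of FGF3 and FGF19 was not tested.

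In the authors' deposited table from edgeR, the log2 fold change was 1.68 for FGF3 and 1.49 for FGF19, the 17th and 23rd largest of its 500 genes. In the authors' deposited table from DESeq2, it was 1.41 (SE 0.08) for FGF3, the largest of its 437 genes, and 0.70 (SE 0.11) for FGF19, the 19th. The transferred gene WNT9A had only 0.41 (SE 0.07) there, the 92nd, against 6.52, the 1st, in the authors' edgeR values. The places in the authors' DESeq2 values are therefore not read as an order of response. The value in the authors' deposited table from DESeq2 was thus 0.84 of that fitted here for FGF3 and 0.47 for FGF19. DESeq2 run here without a prior on the fold changes gave 1.68 for FGF3 and 1.49 for FGF19.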

How the data were processed

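RNA of 6 basilar papilla pools was sequenced from libraries of a stranded Illumina kit, per the labels' protocols. TopHat2, DESeq2, edgeR, DESeq and the galGal4 build appear in the submitters' processing notes. The sources used here do not say how reads were counted or which annotation was used. The authors deposited whole-number counts per gene and library, 1 pooled FPKM per group with bounds, and tables of changed genes from DESeq2 and edgeR with log2 fold changes, p-values, a Wald score and, for DESeq2, a mean normalized signal, per the file headers. FPKM values, having no replicates, were not tested.

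Genes kept by filterByExpr were TMM-scaled and fitted with edgeR 4.0.16 (robust glmQLFit, glmQLFTest, two-sided, Benjamini-Hochberg threshold 0.05) in R 4.3.3, after checks on simulated data. The SE is the absolute log2 fold change divided by the root of F. Alternatives were DESeq2 1.42.0, limma-voom (limma 3.58.1), other scalings and filters, a replicate block and leaving out each library. Distances used log2(CPM + 0.5). Names came from the authors' tables (492 of 522 genes), of which 149 matched RefSeq (GRCg7b) by accession, 324 by symbol and 10 by synonym. Named genes were FGF3, FGF19, WNT9A, named FGF list members, genes within 500 kb and the 5 nearest profiles. Members and lists were chosen with earlier results of these data known. The same-numbered pools are few, so the numbers were not taken to pair them. P-values set the difference between the groups against the spread between pools, which edgeR estimated with information from all tested genes.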

Additional observations from a re-analysis of the deposited data

How the results depend on the processing

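FGF3 and FGF19 kept positive log2 fold changes in every alternative run. This sign was fixed beforehand, because the same contrast chose the pair and the groups did not overlap, so nothing is read from it. With 1 library left out, the log2 fold change lay between 1.63 and 1.73 for FGF3 and between 1.27 and 1.60 for FGF19, and in the other alternatives between 1.65 and 1.68 and between 1.35 and 1.49. The log2 difference in their ratio was 0.12 to 0.36 with 1 library left out, and that of WNT9A was 5.86 to 6.82. The number of changed genes, 276, was 146 to 294 with 1 library left out (148 without RCAS(A) replicate 2 and 146 without RCAS(A) replicate 4) and 437 with DESeq2. Of the 3 named FGF list genes, 1 to 3 were called with 1 library left out. The number was 1 without RCAS(A) replicate 2 and without RCAS(A) replicate 4, where GPC3 was not called. There 1 of FGF3 and FGF19 was therefore not called either, which by the SEs was FGF19. The SE of FGF19 was 0.24 without RCAS(A) replicate 2 and 0.23 without RCAS(A) replicate 4, and that of FGF3 was 0.09 in both. Without RCAS(A) replicate 3 the number was 2 with GPC3 among them, so 1 of the pair was again not called. By an SE of 0.23 for FGF19 and 0.09 for FGF3, it was again FGF19. None of the neighbours was called within 500 kb with 1 library left out, or within 250 or 1000 kb in the main fit. Numbers 2 and 3 occur in both groups, and across genes the residuals of these pairs had correlations of -0.009 and 0.19. The replicate block, fitted to those 4 libraries, called 506 genes in all and 1 of the neighbours, and gave 1.65 for FGF3 and 1.35 for FGF19. With Pearson correlation in place of distance, 2 of the 10 nearest profiles were shared. The cause of these changes was not tested. Depth was not limiting for either growth factor, but the gene listed between them had too few counts to test.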
